A study of Homo sapiens with 6 samples.

Results

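TSPAN18, NFATC4, TCIM, BDKRB2, RBFOX3 and KLRG1 are 6 genes whose transcripts were strongly lower with both short hairpin RNAs (shRNAs) against CBX8 in A549 cells, a human line grown from a lung adenocarcinoma. They are 6 of the 28436 genes in the table and 6 of the 17106 that passed a filter on low counts; all 6 passed it. They were picked from genes with a mean of at least 1 CPM, the count scaled to library size in which all levels are given here, that were called lower in all knockdown libraries against control and under each hairpin alone, which 80 genes were (edgeR, adjusted p under 0.05), and that ranked among the 12 lowest by log2 fold change. The fall against control therefore chose them, and it is given below as a description with no test. Of all tested genes, 3.5% were called lower in the knockdown libraries together, 1.13% with shCBX8-1 and 6.66% with shCBX8-2. KLRG1, at rank 12, had a log2 fold change of -1.67 and was the member just inside. PLAC8, at rank 13, had -1.64 and was just outside. The 12 also held genes outside the 6, among them the lowest of all, at -3.015.

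The libraries come from A549 cells that stably carry a lentivirus: 2 with the hairpin shCBX8-1, 2 with the hairpin shCBX8-2 and 2 with a control construct. No group was left uninfected, so the carrier virus is common to all of them. Whether the cells of a group were a pool or a clone, and whether its 2 libraries came from separate cultures, is not given, so every p-value below weighs only the spread of these libraries, part or all of which may be technical. The study asked which transcripts differ when CBX8 is depleted.

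CBX8 is a chromobox subunit of Polycomb repressive complex 1. Chromobox subunits bind the methyl mark that Polycomb repressive complex 2 places on histone tails, and complexes that hold CBX8 are best known for keeping genes silent. The 6 genes belong to no single pathway. TSPAN18 is a tetraspanin, a membrane-spanning protein that organises other membrane proteins and has been studied with the calcium channel ORAI1 in endothelial cells. BDKRB2 encodes the bradykinin B2 receptor, which signals through Gq proteins and phospholipase C to release calcium. NFATC4 is a transcription factor that enters the nucleus when calcium activates the phosphatase calcineurin. TCIM, also known as TC1, is a small protein that binds CBY1 (Chibby), an inhibitor of beta-catenin. RBFOX3, known to neuroscientists as the antigen NeuN, regulates splicing in neurons. KLRG1 is a lectin-like receptor that inhibits natural killer (NK) and T cells when it binds a cadherin on another cell.

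CBX8 itself had 7.79 and 7.70 CPM with shCBX8-1, 17.7 and 13.8 CPM with shCBX8-2, and 24.6 and 26.3 CPM in control. That left 30.4% of the control mean with shCBX8-1 and 61.9% with shCBX8-2, and CBX8 was called lower under each (edgeR quasi-likelihood test, adjusted p = 0.00704 and 0.0297). Over both hairpins the adjusted p was 0.00758, and 0.0640 to 0.139 without 1 control or 1 shCBX8-1 library, with the log2 difference between -1.25 and -1.16. The totals were 64197784 to 67169537 estimated counts a library. All 8 markers of A549 cells and simple epithelium reached a mean of 1 CPM, and 3 of them were called lower in knockdown: ALDH3A1 (log2 -0.56, adjusted p = 0.00591), AKR1C1 (-0.36, adjusted p = 0.0344) and ALDH1A1 (-0.30, adjusted p = 0.0459). The ALDH1A1 value joins opposite estimates, 0.21 with shCBX8-1 and -0.82 with shCBX8-2. With shCBX8-2 alone EPCAM (1.17, edgeR adjusted p = 0.0130), KRT18 (0.28, adjusted p = 0.0370) and KRT8 (0.24, adjusted p = 0.0467) were called higher. ALDH1A1 and ALDH3A1 were called lower there, and AKR1C1, AKR1C2 and ALDH3A1 with shCBX8-1 alone. The summed level of the 8 markers was 31930 to 32820 CPM with shCBX8-1, 37940 to 42050 CPM with shCBX8-2 and 37590 to 38210 CPM in control. Of 8 fibroblast markers COL1A1 was called lower too (-0.86, adjusted p = 0.0234), with DCN at 0 in all libraries and a summed level of 8.94 to 10.0 CPM with shCBX8-1, 5.61 to 6.24 CPM with shCBX8-2 and 12.5 to 15.03 CPM in control. Of 8 endothelial markers none was called, KDR was at 0, and the sum was 64.2 to 74.2 CPM with shCBX8-1, 66.0 to 72.4 CPM with shCBX8-2 and 78.3 to 88 CPM in control. The part of these markers in the results below was not tested. The 2 libraries of shCBX8-2 stood further apart than the other pairs, with a median absolute log2 gap of 0.24 over all tested genes, against 0.13 within shCBX8-1 and 0.13 within control.

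The tetraspanin TSPAN18 (gene 90139, chromosome 11, positions 44726310 to 44932423 in GRCh38.p14) had 0.997 and 1.03 CPM with shCBX8-1, 0.489 and 0.922 CPM with shCBX8-2, and 3.71 and 4.60 CPM in control. Every knockdown library lay far below both controls, and the lowest was the first shCBX8-2 library. The log2 fold change was -2.03 ± 0.36 with shCBX8-1 and -2.56 ± 0.37 with shCBX8-2 (SE, n = 2 against 2), which left 24.4% and 17.0% of the control mean. These levels rest on few reads: 65 and 68 with shCBX8-1, 31 and 58 with shCBX8-2, and 246 and 308 in control. In RNA from whole cultures, fewer cells that express a gene and less RNA per cell cannot be told apart.

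BDKRB2 (gene 624, chromosome 14, 96204839 to 96244164) had 0.828 and 0.925 CPM with shCBX8-1, 1.48 and 1.00 CPM with shCBX8-2, and 3.84 and 3.87 CPM in control. The controls were almost equal, and both shCBX8-2 libraries lay between the shCBX8-1 pair and the controls. The log2 fold change was -2.14 ± 0.30 with shCBX8-1 and -1.63 ± 0.29 with shCBX8-2, so that 22.7% and 32.2% of the control mean was left.

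KLRG1 (gene 10219, chromosome 12, 8950044 to 9215570) showed the same order. It had 0.843 and 0.804 CPM with shCBX8-1, 0.946 and 1.46 CPM with shCBX8-2, and 2.91 and 3.45 CPM in control. The groups did not overlap, but the gap between knockdown and control was the narrowest of the 6 genes: the lowest control library was 1.99 times the highest knockdown library, the second of shCBX8-2. The log2 fold change was -1.95 ± 0.33 with shCBX8-1 and -1.40 ± 0.32 with shCBX8-2. Genes that mark NK and T cells were nearly absent: CD2, CD3D, CD3E, GZMB and KLRD1 had no count in any library, and of 11 markers only NCAM1, which other cells express too, reached a mean of 1 CPM. Their summed level was 12.9 to 15.1 CPM with shCBX8-1, 21.3 to 23.1 CPM with shCBX8-2 and 13.6 to 14.2 CPM in control.

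The transcription factor NFATC4 (gene 4776, chromosome 14, 24366911 to 24379604) had 0.521 and 0.591 CPM with shCBX8-1, 0.426 and 0.461 CPM with shCBX8-2, and 1.90 and 2.35 CPM in control. Its knockdown libraries fell in a narrow band, well below both controls. The log2 fold change was -1.93 ± 0.36 with shCBX8-1 and -2.25 ± 0.37 with shCBX8-2, with only 27 to 39 counts in any knockdown library and 126 and 157 in control. Those counts depend on transcript entries listed a further time under the same RefSeq number: such repeats held 89.7% of the NFATC4 counts of the second shCBX8-1 library and 91.1% of those of the second control library, and none elsewhere. Without the repeats the counts were 34 and 4 with shCBX8-1, 27 and 29 with shCBX8-2 and 126 and 14 in control, and the log2 fold change with shCBX8-2 was -1.26. The NFATC4 values are uncertain to that extent.

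TCIM (gene 56892, chromosome 8, 40153482 to 40155310) had the most reads of the 6. Its level was 10.9 and 11.5 CPM with shCBX8-1, 8.67 and 11.7 CPM with shCBX8-2, and 43.2 and 40.7 CPM in control. The shCBX8-1 values lay between those of the 2 shCBX8-2 libraries. The log2 fold change was -1.90 ± 0.16 with shCBX8-1 and -2.04 ± 0.17 with shCBX8-2, the smallest standard errors among the 6 genes, and 26.7% and 24.3% of the control mean was left.

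RBFOX3 (gene 146713, chromosome 17, 79089345 to 79665571) had 7.45 and 7.32 CPM with shCBX8-1, 6.05 and 4.10 CPM with shCBX8-2, and 18.8 and 24.5 CPM in control. The shCBX8-1 libraries were nearly equal, and both shCBX8-2 libraries lay below them. The log2 fold change was -1.55 ± 0.22 with shCBX8-1 and -2.09 ± 0.23 with shCBX8-2. Of 10 other markers of neurons, 4 (MAP2, SYT1, NEFL and SYP) reached a mean of 1 CPM and 2 (GAP43 and DCX) had no count. Their summed level was 105 to 109 CPM with shCBX8-1, 42.3 to 43.1 CPM with shCBX8-2 and 86.7 to 88.3 CPM in control. NEFL was the largest part of that sum, with means of 55.1 CPM with shCBX8-1, 19.3 CPM with shCBX8-2 and 39.5 CPM in control. SYT1 was called lower in knockdown (-0.56 ± 0.11, edgeR adjusted p = 0.0308), with 31.9 CPM with shCBX8-1, 11.3 CPM with shCBX8-2 and 28.0 CPM in control. MAP2 averaged 10.4, 6.28 and 11.6 CPM and NEFM 0.420, 0.0394 and 0.691 CPM in shCBX8-1, shCBX8-2 and control, without passing the test over both hairpins. With shCBX8-2 alone SYT1 (-1.31, edgeR adjusted p = 0.00331), NEFL (-1.04, adjusted p = 0.00354) and MAP2 (-0.88, adjusted p = 0.0386) were called lower. With shCBX8-1 alone none of these was called, at 0.19 for SYT1, 0.48 for NEFL and -0.16 for MAP2. The SYT1 value over both hairpins thus joins opposite estimates. The part of these markers in the RBFOX3 values was not tested.

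**Figure D1:**
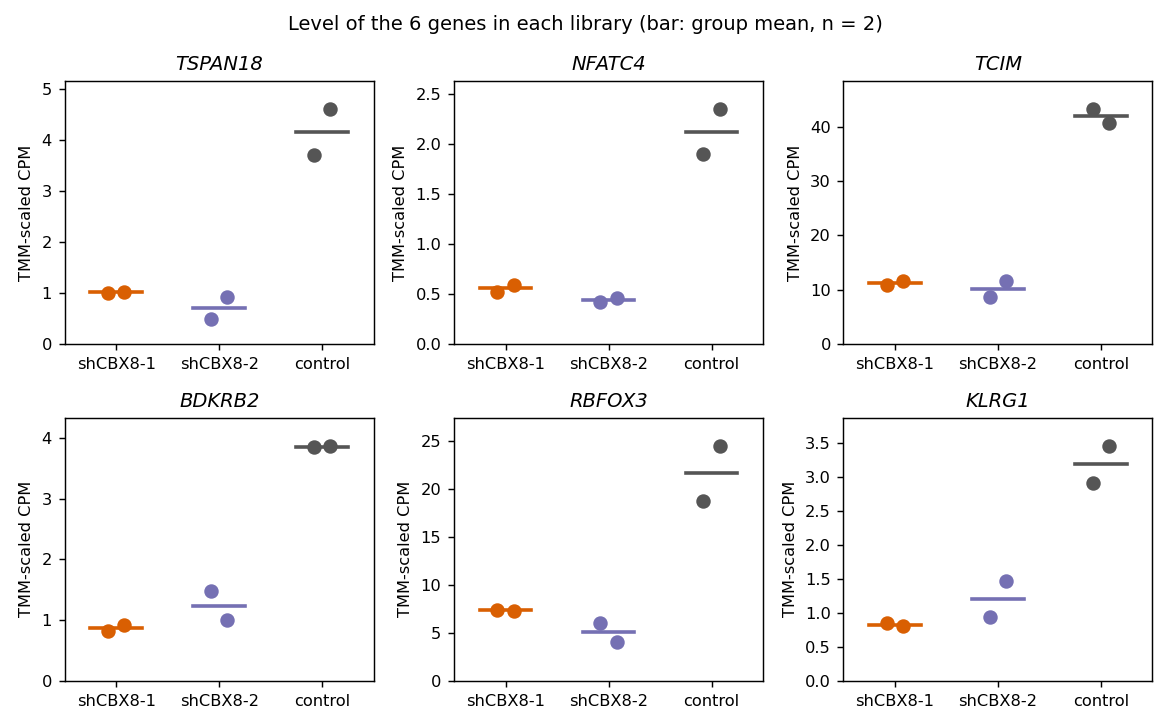
Level of each of the 6 genes in every library, in CPM, by group. Points are libraries; in each gene the 4 knockdown points lie below both control points, with the narrowest gap in KLRG1 (1.99 times).

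In all 6 genes every knockdown library was below both controls, as 15.5% of all tested genes were. Since the choice used the same values, nothing is read from the 6. What remained ranged between 17.0% of the control mean (TSPAN18 with shCBX8-2) and 37.9% (KLRG1 with shCBX8-2). Against the other tested genes the 6 were not strongly expressed: by mean CPM, NFATC4 stood at percentile 20.5, KLRG1 at 25, TSPAN18 at 25.9, BDKRB2 at 26, RBFOX3 at 43.9 and TCIM at 55.2.

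The 2 hairpins were then set side by side. CBX8 was higher with shCBX8-2 than with shCBX8-1 by 1.02 on the log2 scale (95% interval 0.66 to 1.39, edgeR adjusted p = 0.0114), a test that 9.84% of all 17106 genes passed. The 6 genes had to be called lower under each hairpin to be chosen, so their own differences between the hairpins depend on that choice and are a description with no test.

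By estimate, 4 of the 6 were lower with shCBX8-2 and 2 were higher. RBFOX3 differed by -0.54 (shCBX8-2 minus shCBX8-1, log2, 95% interval of the fit -1.07 to -0.02), with both shCBX8-2 libraries below both shCBX8-1 libraries. TSPAN18 differed by -0.52 (-1.38 to 0.34) and NFATC4 by -0.33 (-1.20 to 0.55). For NFATC4 the sign turned to 0.58 without the repeated entries. TCIM had the narrowest interval, at -0.14 (-0.52 to 0.24). The 2 receptors were on the other side: KLRG1 differed by 0.55 (-0.22 to 1.32) and BDKRB2 by 0.50 (-0.20 to 1.21). For these 2, as for CBX8 itself, both shCBX8-1 libraries lay below both shCBX8-2 libraries. The share of all tested genes whose hairpin pairs stood fully apart was not counted, so nothing is read from these orders.

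Single shCBX8-2 libraries set some of these values. Without the first shCBX8-2 library the difference was -0.84 for RBFOX3, and that of TCIM turned to 0.073. Without the second it was -0.29 for RBFOX3, -0.37 for TCIM and -1.05 for TSPAN18.

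**Figure D2:**
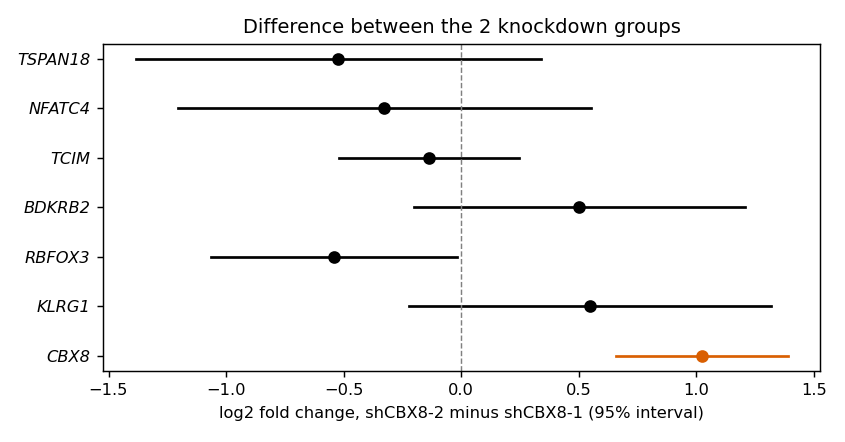
Log2 difference of shCBX8-2 minus shCBX8-1 for CBX8 and the 6 genes, with 95% intervals from the edgeR fit. The CBX8 interval (0.66 to 1.39) lies above 0. The intervals of the 6 genes depend on their choice, which used both hairpins, and are not read as a test.

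Reads were assigned to transcripts by the depositors, and 3 of the 6 genes have more than 1 transcript with counts. Transcript shares were not used in the choice, and they were compared between knockdown and control. None of the 3 passed the test (edgeR diffSpliceDGE, adjusted p = 0.641 for NFATC4, 0.643 for RBFOX3 and 0.738 for KLRG1), with 0 of 3 also at an unadjusted p under 0.05, against 2.2% of 8073 genes called. The shares varied widely between libraries of 1 group. The RBFOX3 transcript NM_001350453 took 0% and 35.4% of the gene's counts with shCBX8-1, 63.0% and 0% with shCBX8-2, and 27.9% and 96.3% in control. The main NFATC4 transcript was NM_001136022 in all but the second shCBX8-1 and second control libraries, where NM_004554, listed there under a repeated entry, held 89.7% and 86.0%.

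KLRG1 had 8 RefSeq transcripts in the table, of which 5 had counts. NM_005810 and NM_001329099, which GENCODE v29 starts at positions 8989541 and 8989621, had 0 counts in all 6 libraries. The counts sat in NM_001329101, NM_001329102, NM_001329103, NR_137426 and NR_137427. NM_001329101 held 9.26% of the pooled counts with shCBX8-1, 3.95% with shCBX8-2 and 51.2% in control, where it led. NR_137427, a transcript that RefSeq lists as non-coding, had 49.1% of the pooled counts with shCBX8-1, 36.8% with shCBX8-2 and 6.84% in control. The gene-level test above did not pass, and single libraries differed as much: NR_137427 held 93.3% and 0% in the 2 shCBX8-2 libraries.

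**Figure D3:**
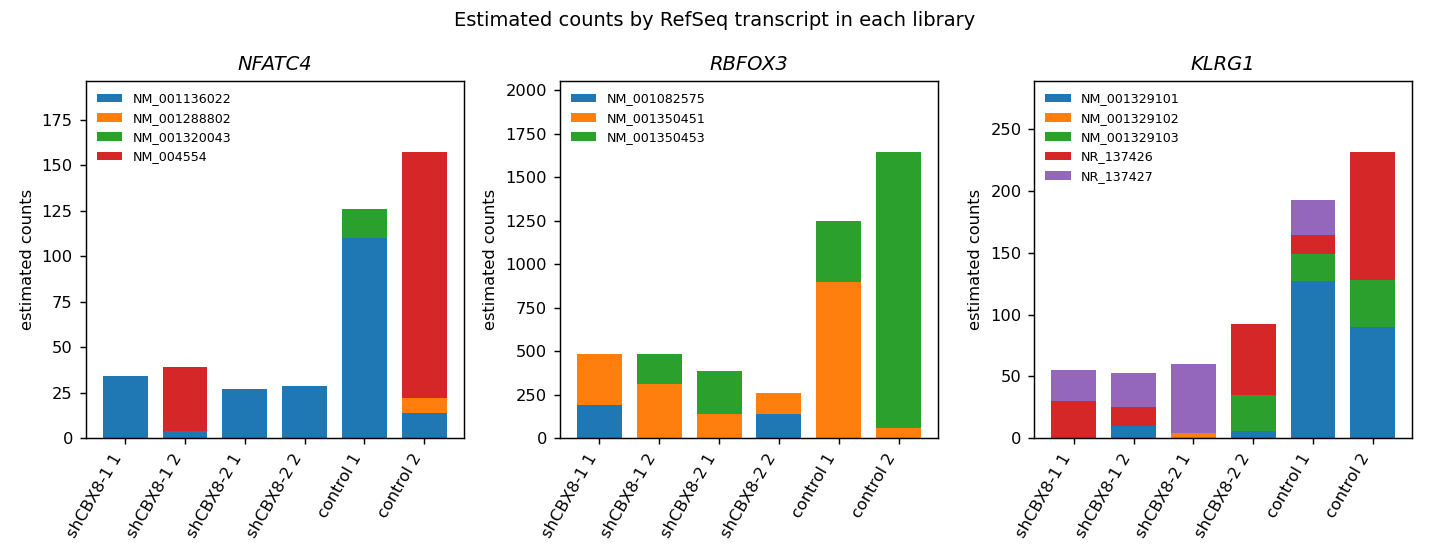
Estimated counts by transcript, stacked, in every library, for NFATC4, RBFOX3 and KLRG1. Bar heights are the gene's total counts and so include the fall that chose the genes. Shares differ widely between libraries of the same group, as for NM_001350453 of RBFOX3 (27.9% and 96.3% in control).

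Windows of 300 bases around starts annotated in RefSeq (GRCh38.p14), 250 before and 50 after, were read for 4 of the 6 genes. They were 1 for BDKRB2, 2 for KLRG1, 3 for NFATC4 and 12 for RBFOX3. Windows of TSPAN18 and TCIM were not used here. Those below are shown because the genes' starts differ in CG content, a feature by which human promoters are commonly sorted and that is frequent where Polycomb complexes bind. Capitals mark CG dinucleotides. The upstream KLRG1 window (chr12:8949794-8950093, plus strand), at the annotated start of the gene, and the downstream one (chr12:8989296-8989595, plus strand), beside the starts of the uncounted transcripts, read:
KLRG1 upstream: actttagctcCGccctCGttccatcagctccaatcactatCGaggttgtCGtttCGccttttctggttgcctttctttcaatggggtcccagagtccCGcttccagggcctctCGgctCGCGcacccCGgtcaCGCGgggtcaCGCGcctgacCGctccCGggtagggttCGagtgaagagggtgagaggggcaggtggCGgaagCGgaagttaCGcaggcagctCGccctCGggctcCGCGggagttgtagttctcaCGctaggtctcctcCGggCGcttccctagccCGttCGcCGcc
KLRG1 downstream: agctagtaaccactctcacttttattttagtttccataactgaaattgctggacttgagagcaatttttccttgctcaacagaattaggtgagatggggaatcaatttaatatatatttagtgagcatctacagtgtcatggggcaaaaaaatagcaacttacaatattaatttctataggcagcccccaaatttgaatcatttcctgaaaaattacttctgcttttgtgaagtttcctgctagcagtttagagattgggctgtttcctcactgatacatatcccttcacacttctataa
The upstream window holds 30 CG dinucleotides and 64.3% G+C, and the downstream one 0 and 35.3%, where the median of all 35116 windows is 14 and 58.7%. GENCODE v29 gives no start for the counted transcripts, so which window they begin in was not tested. The annotated gene start lies 399 bases from M6PR, which encodes a mannose 6-phosphate receptor. M6PR had 151 ± 5.40 CPM with shCBX8-1, 145 ± 7.19 CPM with shCBX8-2 and 144 ± 0.342 CPM in control (SD, n = 2 each), a log2 difference of 0.05 (edgeR adjusted p = 0.725) where KLRG1 had 25.9% of its control mean with shCBX8-1 and 37.9% with shCBX8-2.

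The first NFATC4 window (chr14:24366661-24366960, plus strand), at the start of the transcript with most counts, and the BDKRB2 window (chr14:96204589-96204888, plus strand) read:
NFATC4: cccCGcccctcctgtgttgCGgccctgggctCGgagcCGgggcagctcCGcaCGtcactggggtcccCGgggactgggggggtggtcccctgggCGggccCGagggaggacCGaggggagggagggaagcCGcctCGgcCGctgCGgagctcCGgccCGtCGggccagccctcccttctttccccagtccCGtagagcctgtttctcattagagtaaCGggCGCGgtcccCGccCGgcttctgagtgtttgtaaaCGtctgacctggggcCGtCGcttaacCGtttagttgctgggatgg
BDKRB2: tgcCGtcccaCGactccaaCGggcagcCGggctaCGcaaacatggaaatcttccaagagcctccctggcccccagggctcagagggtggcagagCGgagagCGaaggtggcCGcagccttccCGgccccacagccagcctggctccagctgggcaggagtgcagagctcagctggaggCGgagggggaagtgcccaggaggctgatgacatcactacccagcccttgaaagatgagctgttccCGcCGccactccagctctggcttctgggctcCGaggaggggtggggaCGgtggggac
They hold 27 and 14 CG dinucleotides. The 12 RBFOX3 windows hold 4 to 22 each. Motifs were searched on both strands. GGGCGG, the GC box, which contains CG, occurs 3 times in this NFATC4 window and once in the upstream KLRG1 window, and in 45.0% of all windows. CCAAT occurs in both KLRG1 windows and in 34.6% of all. GGAAA, the core of NFAT sites, occurs 5 times in the downstream KLRG1 window, once each in those of NFATC4 and BDKRB2, and in 61.2% of all. TATAAA (11.5% of all) is in none of the 4 printed windows, and TGANTCA, an AP-1 site (7.71%), is in the downstream KLRG1 window. A match is a run of letters and not a bound site.

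Other genes of the members' pathways and families were read in 7 lists, of which 148 genes were tested. In knockdown against control (the mean of both hairpins minus control), 6 of the 148 rose and 10 fell, or 10.8%, against 6.82% of all tested genes (568 genes or 3.32% rose, and 598 fell). The median log2 difference was -0.12, against -0.04 over all tested genes. The calls depend on single libraries: without either control library or either shCBX8-1 library 0 of the 16 counted remained, without 1 shCBX8-2 library 43 or 51 were called, and DESeq2 called 26.

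Of 26 other tetraspanins tested, 4 fell and 1 rose. TSPAN2 had 0.784 ± 0.285 CPM with shCBX8-1, 0.372 ± 0.00896 CPM with shCBX8-2 and 1.80 ± 0.160 CPM in control (log2 -1.73 ± 0.34, adjusted p = 0.0315). TSPAN7 had 5.14 ± 1.35 CPM with shCBX8-1, 2.69 ± 0.587 CPM with shCBX8-2 and 10.3 ± 0.232 CPM in control (log2 -1.47 ± 0.20, adjusted p = 0.0126). TSPAN9 and TSPAN33 fell by less (-0.43 and -0.75), and TSPAN6 rose (0.45 ± 0.07, adjusted p = 0.0181). The list's median was -0.06.

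Around BDKRB2, 21 genes of the kinin system and its Gq relay were tested, and 1 rose and 2 fell. PLCB1, a phospholipase C that Gq proteins activate, fell (-0.95 ± 0.18, adjusted p = 0.0282), as did PLA2G4A, a phospholipase A that frees arachidonic acid (-0.67 ± 0.14, adjusted p = 0.0372). XPNPEP1, an aminopeptidase that degrades bradykinin, rose (0.48 ± 0.08, adjusted p = 0.0212). ECE1, an endopeptidase, stood at 0.30 (adjusted p = 0.0547). The sister receptor BDKRB1, whose gene lies 12.046 kb from BDKRB2, had 0.199 and 0.121 CPM with shCBX8-1, 0.331 and 0.127 CPM with shCBX8-2, and 0.829 and 0.956 CPM in control. All 4 knockdown libraries were below both controls, and the difference of -2.21 ± 0.58 did not pass (edgeR adjusted p = 0.0739).

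Of 30 genes of store-operated calcium entry and calcineurin signalling, 3 rose and 0 fell. Among those that rose were CALM3, which encodes a calcium sensor (0.47 ± 0.07, adjusted p = 0.0158), and the calcium release channel ITPR3 (0.36 ± 0.07, adjusted p = 0.0321). The plasma membrane channel ORAI3 stood at -0.57 (adjusted p = 0.0502). The other NFAT factors did not pass: NFATC1 stood at -0.49 (adjusted p = 0.0901), NFATC2 at 0.43 (adjusted p = 0.207), NFATC3 at 0.04 (adjusted p = 0.806) and NFAT5 at -0.33 (adjusted p = 0.421).

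Of 8 tested genes that NFAT factors are known to switch on in other cells, 3 fell and 0 rose over both hairpins. They were the chemokine CXCL8 (-1.41 ± 0.24, adjusted p = 0.0224), the calcineurin inhibitor RCAN1 (-0.65 ± 0.12, adjusted p = 0.0291) and the prostaglandin synthase PTGS2 (-1.17 ± 0.23, adjusted p = 0.0308). CXCL8 had 7.28 ± 0.125 CPM with shCBX8-1, 6.51 ± 2.94 CPM with shCBX8-2 and 18.3 ± 2.17 CPM in control. The cytokine IL11 stood at -0.82 (adjusted p = 0.257). The hairpins did not give the same counts: 0 of the 8 passed with shCBX8-1, with 4 at an unadjusted p under 0.05 and 4 by DESeq2, where 2.47% of all tested genes passed. With shCBX8-2 2 fell and 1 rose, where 12.7% of all tested genes passed. The gene that rose was NR4A1, a nuclear receptor, which had 42.1 ± 2.89 CPM with shCBX8-1, 87.4 ± 9.20 CPM with shCBX8-2 and 58.3 ± 6.02 CPM in control (0.58 with shCBX8-2, adjusted p = 0.0240). The list's median over both hairpins was -0.77, and it includes IL6 and TNF, whose mean levels were at most 0.233 CPM in any group. Other factors switch on these genes too.

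Around TCIM, 28 genes of Wnt and beta-catenin signalling were tested, and 0 passed by edgeR, 3 at an unadjusted p under 0.05 and 1 by DESeq2. CBY1, the partner of TCIM, had 18.0 ± 0.718 CPM with shCBX8-1, 18.3 ± 3.62 CPM with shCBX8-2 and 19.6 ± 0.825 CPM in control (-0.11, adjusted p = 0.673). The Wnt receptor FZD4 stood at -0.48 (adjusted p = 0.0821), the relay protein DVL1 at 0.37 (adjusted p = 0.0831), FZD1 at 0.28 (adjusted p = 0.187) and the co-receptor LRP5 at -0.19 (adjusted p = 0.241).

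Of 23 splicing regulators, 1 rose, the repressor PTBP1 (0.29 ± 0.06, adjusted p = 0.0341), and 0 fell. RBFOX1 had no count in any library. RBFOX2 had 105 ± 7.02 CPM with shCBX8-1, 110 ± 1.81 CPM with shCBX8-2 and 93.1 ± 6.67 CPM in control (0.20, adjusted p = 0.172), a difference that was -0.047 without repeated entries. NOVA1 and SRRM3, which neurons express, stood at -0.66 (adjusted p = 0.0936) and -0.64 (adjusted p = 0.118).

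The cadherins that KLRG1 binds were followed with its phosphatases and related lectins, and of 12 tested 1 fell and 0 rose. CDH1 (E-cadherin) had 10.9 ± 0.680 CPM with shCBX8-1, 18.1 ± 0.608 CPM with shCBX8-2 and 20.5 ± 1.76 CPM in control (-0.55 ± 0.11, adjusted p = 0.0312). CDH2 (N-cadherin) had 8.24 ± 0.0738 CPM with shCBX8-1, 1.72 ± 0.225 CPM with shCBX8-2 and 4.51 ± 0.852 CPM in control, so its mean over both hairpins (-0.26, adjusted p = 0.431) joins opposite estimates. CDH4 (R-cadherin) stood at 0.05 (adjusted p = 0.957). The phosphatase PTPN11 stood at -0.29 (adjusted p = 0.256), and the lectins CLEC2D and OLR1 at -0.32 (adjusted p = 0.263) and -1.22 (adjusted p = 0.112).

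**Figure D4:**
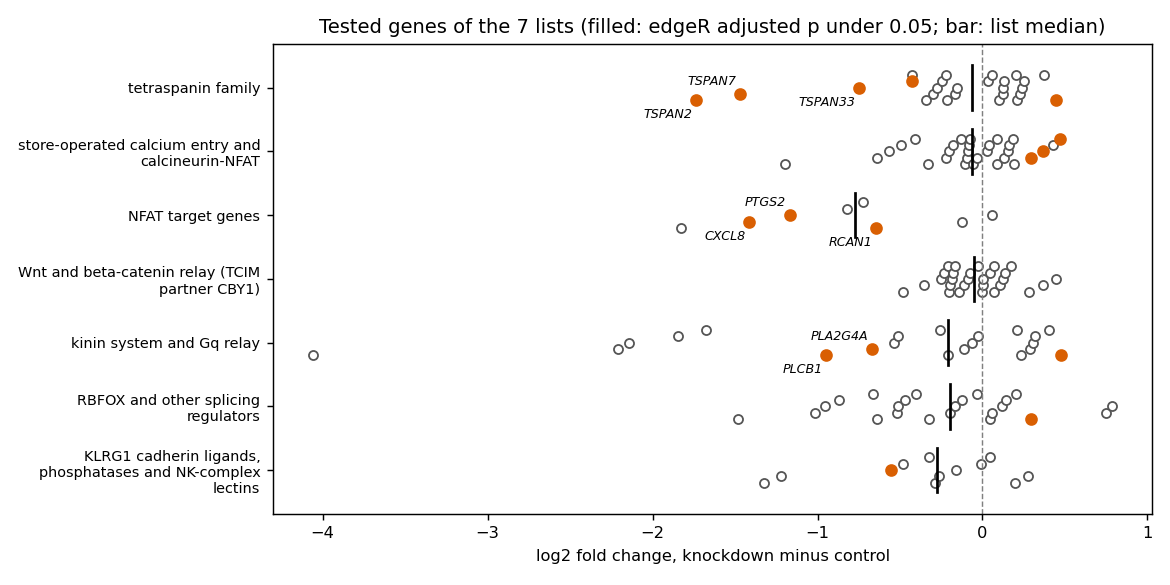
Log2 difference of knockdown minus control for every tested gene of the 7 lists, 1 point a gene, with genes past the edgeR threshold marked. Most points lie near 0; the NFAT target genes, some of them near the detection floor, have a median of -0.77.

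Genes beside the 6 on the chromosome were read next, since the choice did not use them. RefSeq lists 198 genes within 500 kb, of which 89 were tested: 3 rose and 7 fell, or 11.2%, against 6.82% of all tested genes. One of these is CBX8, the knocked-down gene, 126.561 kb from RBFOX3, and without it the share was 10.2%. The median log2 difference of the 89 was -0.04, the same as over all tested genes. As for the lists, 0 were called without either control or either shCBX8-1 library, 20 or 24 without 1 shCBX8-2 library, and 18 by DESeq2.

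The called neighbours were unevenly spread. Near TCIM only 2 genes were tested, and both fell. SIRLNT, at 177.9 kb, had 4.71 ± 0.868 CPM with shCBX8-1, 7.30 ± 2.00 CPM with shCBX8-2 and 12.8 ± 0.675 CPM in control (-1.12 ± 0.19, adjusted p = 0.0225). ZMAT4, a zinc finger gene at 375.3 kb, had 0.275 ± 0.0669 CPM with shCBX8-1, 0.261 ± 0.00963 CPM with shCBX8-2 and 1.47 ± 0.882 CPM in control (-2.45 ± 0.48, adjusted p = 0.0327). The fall of ZMAT4 is set against controls that differed widely, at 0.844 and 2.09 CPM. Both were named after their values were seen.

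Near BDKRB2 1 of 7 tested genes was called. C14orf132, at 110.9 kb, had 4.85 ± 0.0606 CPM with shCBX8-1, 1.88 ± 0.302 CPM with shCBX8-2 and 8.23 ± 0.222 CPM in control (-1.44 ± 0.15, adjusted p = 0.00758). Near TSPAN18 1 of 6 was called: SYT13, a synaptotagmin at 307.9 kb, had 6.32 ± 0.277 CPM with shCBX8-1, 8.68 ± 0.242 CPM with shCBX8-2 and 12.9 ± 1.42 CPM in control (-0.80 ± 0.12, adjusted p = 0.0169). Near RBFOX3 3 of 20 rose and 3 fell. TIMP2, an inhibitor of matrix metalloproteinases at 164 kb, rose by 0.43 ± 0.07 (adjusted p = 0.0170), as did EIF4A3 (0.28) and CBX2 (0.38), a chromobox paralogue beside CBX8. The CBX2 value joins unlike estimates: 0.09 with shCBX8-1 (adjusted p = 0.709) and 0.67 with shCBX8-2 (adjusted p = 0.00897), which differed from each other (0.57, adjusted p = 0.0181). C1QTNF1 and CYTH1 fell (-0.73 and -0.42), with CBX8.

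Near NFATC4 0 of 37 tested genes passed by edgeR, with 10 at an unadjusted p under 0.05 and 4 by DESeq2. Near KLRG1 0 of 17 passed by edgeR, with 2 at an unadjusted p under 0.05 and 0 by DESeq2. The median log2 difference was 0.04 around NFATC4 and 0.13 around KLRG1.

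**Figure D5:**
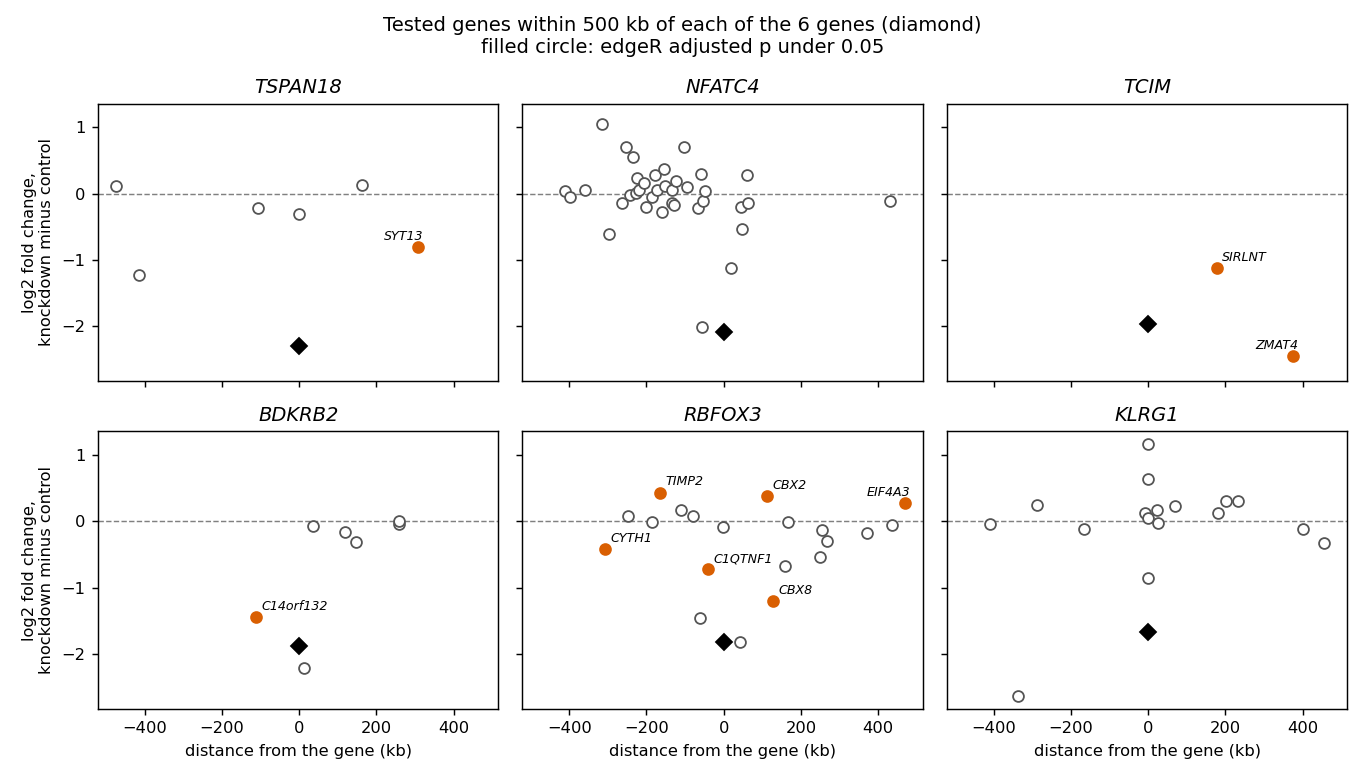
Log2 difference of knockdown minus control for tested genes within 500 kb of each of the 6 genes, against distance in kb from the gene. Genes past the edgeR threshold are marked: 2 of 2 near TCIM, 6 of 20 near RBFOX3, 1 each near BDKRB2 and TSPAN18, and 0 near NFATC4 and KLRG1.

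The genes whose levels over the 6 libraries were most like each of the 6 were found by the root-mean-square difference of centred log2 CPM among 13654 candidates. The closest to TSPAN18 were SPARC and FBN2, both extracellular matrix proteins (0.31 and 0.36). For NFATC4 they were GASK1B and the gap junction protein GJA1 (0.22 and 0.26), and for TCIM GASK1B and the small GTPase RAB17 (0.17 and 0.19). For BDKRB2 they were ADM2, a peptide of the calcitonin family, and the keratin KRT20 (0.23 and 0.28). For RBFOX3 they were USH1C and the ceramide synthase CERS4 (0.19 and 0.22), and for KLRG1 RAB17 and SLC51B, a bile salt transporter subunit (0.20 and 0.24). Among the 6 themselves NFATC4 and TCIM were the most alike (0.16), and TSPAN18 and BDKRB2 the least (0.63). FBN2, ADM2 and KRT20 were among the 12 lowest genes too. Likeness over 6 libraries is a description, and groups of 2 libraries leave it coarse. These levels include the fall that chose the 6. Likeness among them, and to other strongly lower genes, therefore follows in part from the choice.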

How the data were processed

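RNA from A549 cells was sequenced in 6 libraries of 3 groups. The authors deposited an estimated count per RefSeq transcript and library, not normalized and in whole numbers. Per the submitters' processing notes, HISAT2 2.2.1, StringTie 2.2.1, DESeq2 1.34.0 and the build hg38 were used, with no role given, and the sources used here do not give the counting step or its use of strand. Of 84787 entries, 99.45% were matched to a gene through the RefSeq table of GRCh38.p14 (83963) or GENCODE v29 (357). The 467 without a match were kept under their own number and are counted among the 28436 genes. Counts were summed per gene, entries that repeat a RefSeq number with a copy suffix included (2.89% to 3.17% of counts). edgeR 4.0.16 (R 4.3.3) then ran filterByExpr (minimum count 10), TMM scaling and quasi-likelihood tests over 17106 genes, with 3 groups of 2 libraries in 1 fit, contrasts, Benjamini-Hochberg adjustment and a threshold of 0.05. Levels are CPM scaled by TMM, and log2 values are edgeR's. Two-sided p-values are given. Transcript shares were tested with diffSpliceDGE, which on simulated data gave unchanged genes a small p more often than its nominal rate. Alternatives were DESeq2 1.42.0, other scaling, filters, samples in the fit, a replicate block, repeated entries left out and single libraries left out.

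The 6 genes and all lists were chosen with earlier results of these data known. Genes named besides the 6 are, by rule, the 4 with the smallest p of each list and of the neighbours, the small families of the 6, the 2 most alike in level to each, CBX8 and the gene just outside the rank; all other names were chosen after their values were seen. One gene that this rule names is not reported here. The planned test of the 6 genes between the hairpins is given without p-values, since the choice used both hairpins. No set test was made.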

Additional observations from a re-analysis of the deposited data

Results flagged for a closer look

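Of the genes named besides the 6, 17 differed between the hairpins in a direct test of shCBX8-2 minus shCBX8-1 (edgeR, adjusted p under 0.05). The markers KRT8, KRT18, EPCAM and AKR1C2 differed too and are not counted in the 17. Of all tested genes 9.84% did. Many of the 17 were named for a small p or after their values were seen, so their number is not read against that share. Values are log2 differences between the hairpins, followed by each hairpin's own difference from control.

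CDH2 differed by -2.26 (adjusted p = 0.00263), with -1.39 under shCBX8-2 and 0.87 under shCBX8-1. CDH1 differed by 0.74 (adjusted p = 0.0182), with -0.18 under shCBX8-2 and -0.92 under shCBX8-1, so the ligands of KLRG1 did not move together. CBX8 differed by 1.02 (adjusted p = 0.0114), with -0.69 under shCBX8-2 and -1.72 under shCBX8-1. C14orf132, near BDKRB2, differed by -1.36 (adjusted p = 0.00880), with -2.13 under shCBX8-2 and -0.76 under shCBX8-1, and BDKRB2 itself had -1.63 under shCBX8-2 and -2.14 under shCBX8-1.

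Of the calcium and calcineurin genes, ITPR3 differed by 0.41 (adjusted p = 0.0273), with 0.57 under shCBX8-2 and 0.16 under shCBX8-1. RCAN1 differed by -0.75 (adjusted p = 0.0258), with -1.02 under shCBX8-2 and -0.27 under shCBX8-1. DVL1 differed by 0.56 (adjusted p = 0.0311), with 0.64 under shCBX8-2 and 0.09 under shCBX8-1. NOVA1 differed by -0.96 (adjusted p = 0.0482), with -1.15 under shCBX8-2 and -0.18 under shCBX8-1. NR4A1 differed by 1.05 (adjusted p = 0.00497), with 0.58 under shCBX8-2 and -0.47 under shCBX8-1.

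Of the marker genes, SYT1 differed by -1.50 (adjusted p = 0.00192), with -1.31 under shCBX8-2 and 0.19 under shCBX8-1. The next pairs keep that order. NEFL differed by -1.52 (adjusted p = 0.00107), with -1.04 and 0.48, and SYP by -0.68 (adjusted p = 0.0361), with -0.38 and 0.29. COL1A1 differed by -0.82 (adjusted p = 0.0367), with -1.27 and -0.45, and ALDH1A1 by -1.03 (adjusted p = 0.00130), with -0.82 and 0.21. ALDH3A1 differed by 0.59 (adjusted p = 0.00349) and NCAM1 by 0.66 (adjusted p = 0.0279). CBX2, near RBFOX3, differed by 0.57 (adjusted p = 0.0181), with 0.67 under shCBX8-2 and 0.09 under shCBX8-1.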

How the results depend on the processing

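The 6 genes stayed lower than control under both hairpins in all 12 alternatives. They were chosen for that fall in these same libraries, so this is a description with no test. Genes called in knockdown, 1166, were 2439 with the DESeq2 Wald test, 27 with the knockdown libraries as 1 group and 1 to 4469 with 1 library left out. For shCBX8-1, 423 became 1482 with DESeq2, 2425 with only the libraries compared and 0 to 2327 with 1 left out. For shCBX8-2, 2171 became 3559, 998 and 139 to 5529 in the same order, and between the hairpins 1683 became 2956, 640 and 126 to 5115. Called list genes, 16, were 26 with DESeq2, 0 with knockdown as 1 group and 0 to 51 with 1 left out. Called neighbours, 10, were 18, 0 and 0 to 24 in the same order, 6 within 250 kb and 22 within 1000 kb. With the replicate number as a block, 704 genes were called in knockdown, 178 for shCBX8-1 and 1086 between the hairpins. The same block gave 9 in the lists and 5 among neighbours. Same-numbered libraries did not deviate together over all tested genes (r = 0.02, -0.01 and -0.02). Whether the numbers pair the libraries is not given. Transcript shares gave 0 calls throughout.

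Signs turned for NFATC4 between the hairpins (0.58) and, in knockdown, for RBFOX2 (-0.047) and CDH4 (-0.072) without repeated entries, and for CDH2 with knockdown as 1 group (0.14). With 1 library left out, TCIM between the hairpins ran between -0.37 and 0.073, and in knockdown CDH4 ran between -0.24 and 0.41, NR4A1 between -0.044 and 0.17 and SYP between -0.10 and 0.015. None of these differences was called with all libraries. The causes were not tested. With 1 library left in a group, its spread is assumed to equal that of the others. Low counts limit NFATC4 (27 to 39 in each knockdown library) and TSPAN18 (31 to 68).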
